A study of Arabidopsis thaliana with 12 samples.

Results

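PRK (AT1G32060) and SBPASE (AT3G55800) encode phosphoribulokinase and sedoheptulose-bisphosphatase, a pair of chloroplast enzymes of the Calvin-Benson cycle. They were the 2 genes of this carbon-fixing pathway with an array probe assigned to them alone, among 692 such single-gene probes and 3439 probes in all. PRK was read by probe 3151 and SBPASE by probe 1517, the sole single-gene probe of each, and whether a probe reads the gene its annotation names was not tested. Levels were measured in total RNA of Arabidopsis thaliana, in 6 samples of the wild type and 6 of atc6. The latter is a mutant of the chloroplast haem protein cytochrome c6, and absence of the protein was not tested. All 12 samples shared the Columbia 0 background and growth on MS medium, a mineral culture medium. The organ, the age, the light regime and the nature of the mutant allele are not given in the labels. Samples 1 and 2, 3 and 4, and 5 and 6 of each genotype were treated as 3 doublets of repeats, and each doublet was averaged before any test.

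The Calvin-Benson cycle uses ATP and NADPH from the thylakoid reactions to turn CO2 into sugar phosphates. Phosphoribulokinase spends ATP to make ribulose bisphosphate, the sugar to which Rubisco adds CO2. Sedoheptulose-bisphosphatase removes a phosphate earlier in the same regeneration branch and commits carbon to rebuilding that acceptor. Both enzymes are switched on in the light when thioredoxin reduces their disulfide bonds, and phosphoribulokinase is held inactive in the dark in a complex with glyceraldehyde-3-phosphate dehydrogenase and the small protein CP12. The electrons that reduce thioredoxin come from the thylakoid electron transport chain, and cytochrome c6 is a protein of the thylakoid lumen.

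The deposited values are array intensities with an unstated scale. Median intensities lay between 0.485 and 0.627 in wild type and between 0.323 and 0.500 in mutant replicates 3 to 6, while mutant replicates 1 and 2 stood apart at 4.46 and 4.52. Intensities are therefore given below also as multiples of the median of the same sample and as percentile ranks among the 3329 probes that were above 0 in at least 1 sample. Neither measure depends on a factor common to all probes of a sample. Multiples of the median do depend on the shape of a sample's intensity distribution, which was unequal. In mutant replicates 1 and 2 the means were 5.78 and 5.83, beside medians of 4.46 and 4.52. In mutant replicates 5 and 6 the means were 0.911 and 0.944, beside medians of 0.323. Wild-type means lay between 1.05 and 1.07, and those of mutant replicates 3 and 4 were 1.06 and 1.07. No probe for the mutated gene or for plastocyanin was assigned to a single gene (0 of 3 genes), so the genotype could not be checked on its transcript, and 0 of 5 green-tissue markers and 0 of 5 root markers had a probe of their own. Fewer cells of a type and less RNA per cell cannot be told apart in such whole-RNA samples. The labels do not tie the doublets to separate cultures or plants, so the p-values cover the spread of these samples alone, which may be technical in part, and 3 doublets per genotype limit the precision of every value.

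PRK had higher values in every mutant sample than in any wild-type sample, whether its intensity was taken as deposited, as a multiple of the sample median, as a rank or after normalization. The deposited intensities were 0.492, 0.431, 0.520, 0.525, 0.684 and 0.737 in wild-type replicates 1 to 6. They were 12.4, 11.6, 1.41, 1.41, 2.37 and 2.54 in mutant replicates 1 to 6. The highest values belonged to mutant replicates 1 and 2, whose whole scale was raised. As multiples of the sample median, PRK stood at 0.785, 0.693, 1.07, 1.07, 1.30 and 1.42 in wild type. In atc6 the multiples were 2.79, 2.56, 2.82, 2.84, 7.34 and 7.86. On this measure mutant replicates 1 to 4 lay close together and replicates 5 and 6 stood highest, in samples whose own median was the lowest of all. Of the 3329 probes, 62 (1.86%) likewise had no overlap between 6 mutant and 6 wild-type samples and stood higher in atc6 on this measure. As deposited 54 (1.62%) did so, and after normalization 83 (2.49%).

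**Figure D1:**
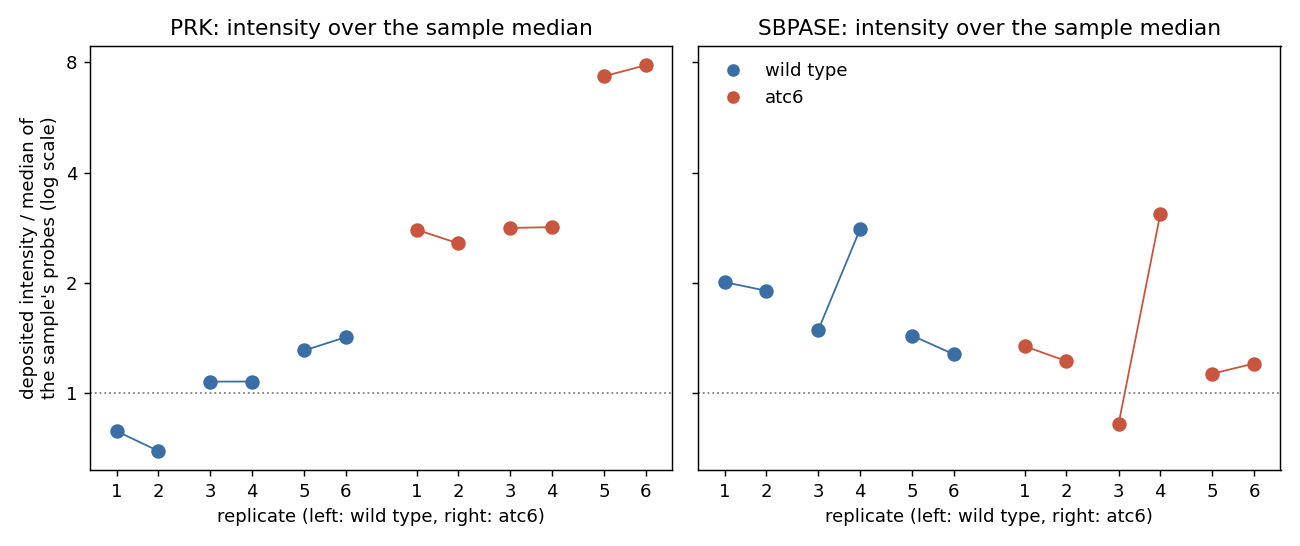
Deposited intensity divided by the median of the sample's probes (log scale) for PRK (left) and SBPASE (right), with each point a sample and a line joining the samples of a doublet. PRK lies between 0.693 and 1.42 in wild type and between 2.56 and 7.86 in atc6, while SBPASE overlaps and its replicates 3 and 4 lie far apart in both genotypes.

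On the normalized log2 scale the PRK repeats of a doublet differed by 0.0062 to 0.18, against a range of 0.83 between the 3 wild-type doublets and 0.63 between the 3 mutant doublets. The largest gaps, 0.17 in wild type and 0.18 in atc6, were those of replicates 1 and 2, where the median probe had gaps of 0.079 and 0.075 and 18.4% and 16.8% of probes had gaps as large. The wild-type doublets stood at 0.12, 0.60 and 0.95 and the mutant doublets at 1.80, 1.80 and 2.43. The highest wild-type doublet and the lowest mutant doublet were thus 0.85 apart. Between doublets of the same number the mutant was higher by 1.68, 1.20 and 1.49.

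Averaged over the 3 doublets of each genotype, the normalized level of PRK was 0.55 ± 0.41 for wild type and 2.01 ± 0.37 for atc6 (SD, n = 3). This is a log2 difference of 1.46 ± 0.30 (SE; 95% interval 0.76 to 2.16), or 2.74-fold. PRK did not pass the test across all probes (limma, two-sided, adjusted p = 0.785, unadjusted p = 0.0014), and 0 of 3329 probes did (0%), with 167 (5.02%) at an unadjusted p under 0.05. The members were chosen with earlier results of these data known, so their p-values in limma and by permutation are no independent support. Averaged doublets did not overlap for 193 probes (5.8%) that were higher in atc6, PRK among them. Of all probes, 0.571% had a log2 difference of at least the size of that of PRK in either direction. The fold depends on the scale and on the pseudocount, a constant added before log2. The doublet means taken as multiples of the sample median, without a pseudocount, gave 3.76-fold. With the pseudocount at the 1st or the 25th percentile of positive values, the normalized log2 difference was 1.65 or 1.27. The values as deposited, with the raised scale of mutant replicates 1 and 2, gave a log2 difference of 2.36 ± 0.86 (SE). Without mutant replicates 1 and 2 the difference was 1.75 ± 0.33 (SE), with adjusted p = 0.506 in limma.

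Among the probes of its own sample, PRK ranked near the middle in wild type and in the upper part in atc6. Its percentile ranks were 38.6, 32.8, 51.3, 51.0, 61.1 and 64.3 in wild-type replicates 1 to 6. In atc6 they were 89.3, 85.6, 87.7, 87.4, 95.3 and 95.4. All mutant ranks were thus above 85 and all wild-type ranks below 65. Averaged by doublet, the rank was 49.8 ± 13.5 in wild type and 90.1 ± 4.54 in atc6 (SD, n = 3). The difference of 40.3 percentage points gave p = 0.1 by exact permutation, two-sided. That is the smallest p that 3 against 3 doublets allow, reached whenever the doublets do not overlap. The difference of PRK was the largest positive one in rank among the 3329 probes, with the unnamed probe 3814 almost level with it at 40.3, and the next probe at 32.3. Negative differences reached further, to -62.3 for probe 3102. A probe in the middle of the distribution has more room to move in rank than a very bright or very dim one.

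**Figure D2:**
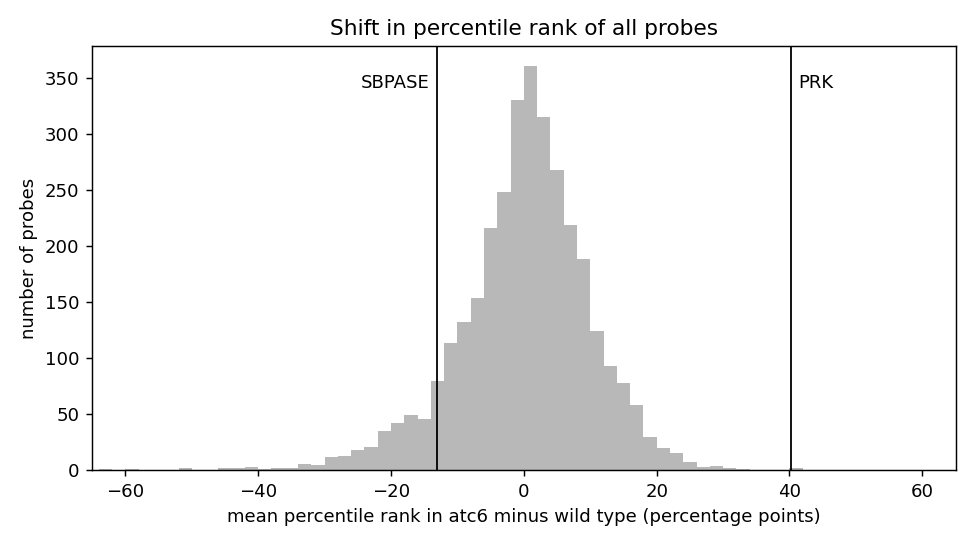
Number of probes (vertical axis) by the difference between the mean percentile rank in atc6 and in wild type (horizontal axis, percentage points, bins of 2), over 3329 probes. PRK lies at the upper edge at 40.3 and SBPASE within the bulk of the distribution at -13.1.

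SBPASE had overlapping values in the genotypes, and the 95% interval of its difference included 0. Deposited intensities were 1.26, 1.18, 0.722, 1.37, 0.752 and 0.661 in wild-type replicates 1 to 6. In atc6 they were 5.97, 5.51, 0.411, 1.53, 0.364 and 0.388. As deposited, only mutant replicates 3, 5 and 6 were below all wild-type values, and replicates 1 and 2 were highest, on their raised scale. As multiples of the sample median, the wild-type values were 2.01, 1.90, 1.49, 2.80, 1.43 and 1.27. The mutant values were 1.34, 1.22, 0.821, 3.08, 1.13 and 1.20. On this measure 4 mutant samples were below every wild-type sample, replicate 1 fell within the wild-type range, and replicate 4 was above all other samples.

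The normalized log2 level of SBPASE was 1.24 ± 0.26 in wild type and 0.84 ± 0.18 in atc6 (SD over 3 averaged doublets). The doublets stood at 1.45, 1.33 and 0.95 in wild type and at 0.78, 1.04 and 0.71 in atc6, so that the highest mutant doublet was above the lowest wild-type doublet. atc6 was lower by a log2 difference of -0.40 ± 0.24 (SE; 95% interval -0.95 to 0.15; limma adjusted p = 0.845). A difference of this size or larger in either direction was found in 26.9% of all probes. The percentile rank was 71.8 ± 8.24 in wild type and 58.7 ± 4.64 in atc6, a difference of -13.1 percentage points (exact permutation test, two-sided, p = 0.2, n = 3). A difference in rank at least as negative was seen for 300 of the 3329 probes. As deposited, without any scaling, the log2 difference turned positive, to 0.39 ± 0.95 (SE), beside a median of 0.66 over all probes.

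The samples of doublet 3 and 4 did not agree for SBPASE. Replicate 4 was 1.90 times replicate 3 in wild type and 3.74 times in atc6, as deposited. On the normalized log2 scale these gaps were 0.70 and 1.65, where the median probe had gaps of 0.096 and 0.075. In the other doublets the repeats of SBPASE differed by 0.071 to 0.17. Gaps at least as large occurred for 72 probes (2.16%) in wild type and for 13 probes (0.391%) in atc6. Replicate 4 exceeded replicate 3 by at least as much as for SBPASE in both genotypes at once in 6 of 3329 probes, SBPASE included. The difference between genotypes moved accordingly. It was -0.13 without mutant replicate 3 and -0.68 without mutant replicate 4. With replicate 4 of both genotypes left out, an alternative chosen after these values were seen, it was -0.56 ± 0.27 (SE, limma adjusted p = 0.852), and with replicate 3 of both left out -0.25 ± 0.37. None of these passed the threshold of 0.05. PRK had no such gap, with repeats 3 and 4 differing by 0.0062 and 0.011, and its difference was 1.44 with either replicate left out of both genotypes.

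The ratio of the PRK to the SBPASE signal within a sample is free of a factor common to its probes, and was taken without normalization. An offset or a compression of a sample's intensities would alter the ratio, and was not tested. The ratio shows unequal change of the probes and not that either was constant. Since a probe's brightness depends on its own sequence, only the change of the ratio between samples can be read. The log2 ratio was -1.35, -1.46, -0.47, -1.39, -0.14 and 0.16 in wild-type replicates 1 to 6. In atc6 it was 1.06, 1.07, 1.78, -0.12, 2.70 and 2.71. Of the mutant samples 5 were above every wild-type sample, and mutant replicate 4, with its high SBPASE value, fell among the wild-type samples. By doublet, the ratio was -1.40, -0.93 and 0.01 in wild type and 1.06, 0.83 and 2.71 in atc6. These did not overlap, but without mutant replicate 3 its doublet was at -0.12, below the highest wild-type doublet. The means were -0.77 ± 0.72 and 1.53 ± 1.02 (SD, n = 3), a difference of 2.31 or 4.95-fold. Since the members were chosen with their opposite signs known, this difference is a description and carries no p. It was 1.99 without mutant replicate 3, 2.54 without mutant replicates 1 and 2, and 1.72 without mutant replicates 5 and 6.

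**Figure D3:**
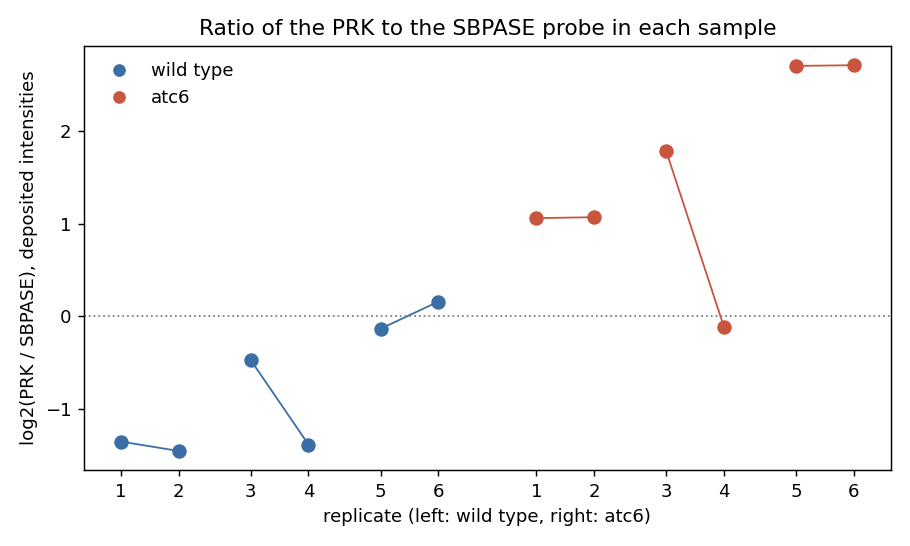
Log2 ratio of the deposited PRK intensity to the deposited SBPASE intensity in each sample, with lines joining the samples of a doublet. Wild-type samples lie between -1.46 and 0.16 and mutant samples between -0.12 and 2.71, and mutant replicate 4 is the one mutant sample within the wild-type range.

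The genes also varied inversely among the doublets of a genotype. In wild type the doublets with more PRK (0.12, 0.60 and 0.95) had less SBPASE (1.45, 1.33 and 0.95). In atc6 the doublet of replicates 5 and 6 had the most PRK, at 2.43, and the least SBPASE, at 0.71. The other mutant doublets had the same PRK level to 2 decimals and SBPASE levels of 0.78 and 1.04. These orders rest on averaging the discordant SBPASE repeats 3 and 4. Wild-type replicate 4 alone, at 1.68, was above the doublet of replicates 1 and 2, and mutant replicate 3 alone, at 0.22, was below the doublet of replicates 5 and 6. With 3 doublets per genotype no correlation of PRK with SBPASE was computed within a genotype.

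The probes numbered beside each member were read as well. Beside PRK, the unnamed probe 3149 differed by -0.37 ± 0.42 (SE) and probe 3152 by 0.32 ± 0.25. Probe 3152 had deposited intensities of 0.245 to 0.384 in wild type and 0.174 to 3.77 in atc6, which overlapped. Beside SBPASE, probe 1516 differed by -0.04 ± 0.42 and probe 1519 by -0.61 ± 0.52. The difference of probe 1519 thus had the sign of that of SBPASE, with a larger value and a larger SE. The adjusted p of these 4 probes in limma was between 0.851 and 0.984. Whether the probe numbers follow positions on the array is not given in the sources used here.

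Little of the rest of the pathway could be read. Of 26 genes of the Calvin-Benson cycle and its regulators, PRK and SBPASE had a probe of their own, 1 gene was found only on probes shared with other genes, and 23 were on no annotated probe. Neither the Rubisco subunits nor the CP12 genes had a probe named for them alone and are not analysed here, and 1877 of the 3439 probes are not listed in the annotation. Of the 2 members 0 passed the test in either direction (0% of all probes), with 1 positive and 1 negative difference. The median difference of all probes was 0.04.

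The stromal thioredoxin list, which holds thioredoxins and proteins that reduce them, had 2 of 17 genes on a probe of their own and 3 on shared probes. NTRC, an NADPH-dependent thioredoxin reductase with its own thioredoxin domain, had doublet levels of 1.32, 1.01 and 0.45 in wild type and 0.69, 0.80 and 0.51 in atc6. Its wild-type doublets followed the order of SBPASE and ran against that of PRK. The difference was -0.26 ± 0.28 (SE, limma adjusted p = 0.881), and -0.06 without wild-type replicates 1 and 2. AT2G04700, which the reference table leaves without a symbol, stood at -0.39, 0.21 and 0.64 in wild type and 1.07, 0.41 and 0.88 in atc6. Its wild-type order was that of PRK, and its mutant order was not. Its difference of 0.63 ± 0.32 (SE) did not pass either (limma adjusted p = 0.845), and it was 0.18 without replicates 1 and 2 of both genotypes.

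Of 19 genes of photorespiration, the salvage pathway for the product of Rubisco's reaction with oxygen, 1 had its own probe. This gene, LrgB (AT1G32080), was at 0.65 ± 0.41 in wild type and 0.53 ± 0.32 in atc6 (SD, n = 3), a difference of -0.12 ± 0.29 (SE, limma adjusted p = 0.939) that turned to 0.02 without replicates 5 and 6 of either genotype. Without normalization the differences of LrgB, NTRC and AT2G04700 were 0.66, 0.48 and 1.28, where the median probe was at 0.66. None of 26 genes of starch and sucrose metabolism, which draws on the output of the cycle, had a probe of its own, and 2 were on shared probes. Over these lists 0 genes passed in either direction.

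The genes whose levels ran most like those of PRK were sought among 607 others with a single-gene probe and no value at 0. The measure was Pearson's r over the 6 averaged doublets, for which the median gene had r = -0.01 with PRK. The highest of 607 values over 6 points can be large for unrelated genes too, and no chance level was computed for them. Because PRK separates the genotypes, a high r includes a shared difference between them, and the doublets also share their samples and normalization. The highest was AT5G38750, with r = 0.98 and Spearman's rho = 0.94. Its level was 0.64 in wild type and 1.19 in atc6, a difference of 0.56 ± 0.22 (SE). AT4G15840 followed with r = 0.97 and rho = 0.89 and a difference of 0.48 ± 0.22. PSBY, a small subunit of photosystem II, came next with r = 0.94 and rho = 0.94. It stood at 1.87 in wild type and 2.57 in atc6. AT5G11650 (r = 0.93) and AT2G41120 (r = 0.92) completed the first 5. Each had a smaller difference than PRK, between 0.38 and 0.81, and an adjusted p of 0.845 in limma. With doublets taken as deviations from their genotype mean, the r of these 5 genes with PRK was 0.74 to 0.93.

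For SBPASE the closest was AT1G09200, which encodes histone H3.1, with r = 0.94 and rho = 0.83. Its level was 0.07 in wild type and -0.34 in atc6, a difference of -0.41 ± 0.25 (SE). AT1G01080 followed with r = 0.91 and a difference of -0.39 ± 0.25. AT2G48090, NTRC and AT4G19900 each had r = 0.89. AT4G19900 had the largest difference of these 5, from 3.49 in wild type to 2.34 in atc6, or -1.15 ± 0.34 (SE), and its doublets did not overlap, as was so for 179 probes (5.38%) lower in atc6. None of the 5 passed (limma adjusted p between 0.845 and 0.881). With doublets taken as deviations from their genotype mean, their r with SBPASE was 0.73 to 0.94. No chance level was computed here either.

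**Figure D4:**
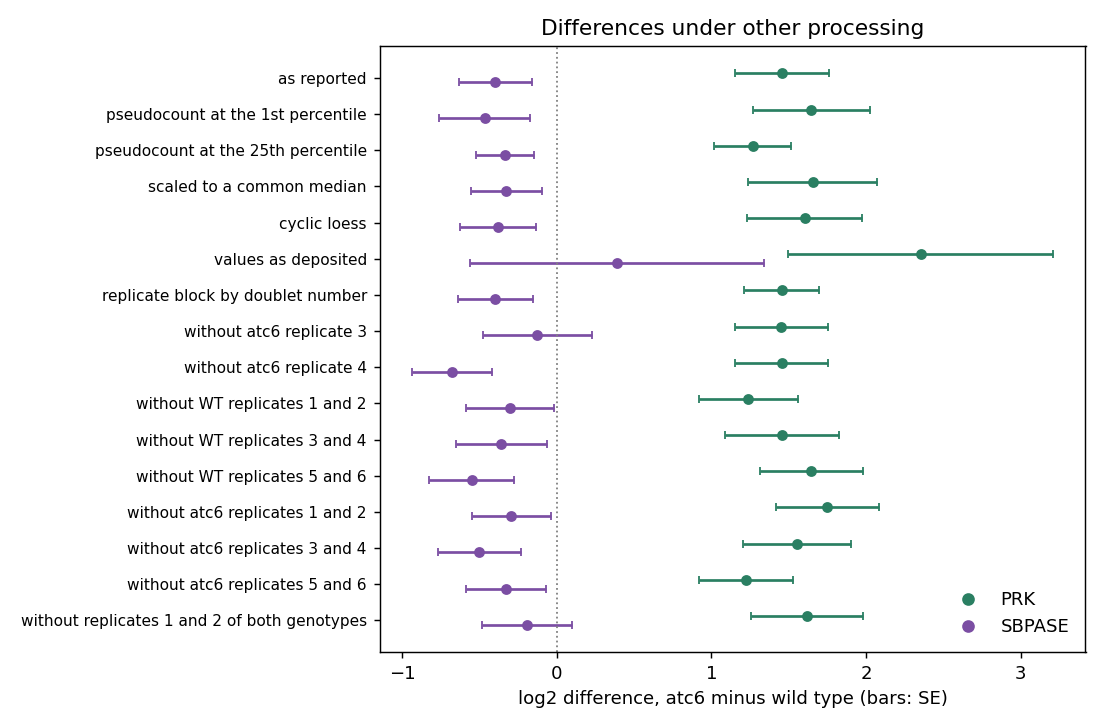
Log2 difference between atc6 and wild type, with its SE, for PRK (green) and SBPASE (purple) as reported and under other processing or with samples left out. PRK lies between 1.22 and 2.36 in all settings drawn, and SBPASE between -0.68 and 0.39, positive for the values as deposited.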

How the data were processed

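The deposited table holds array intensities of 3439 probes in 12 samples. The unit was read from the values, and no label or header records the scanner, background correction or scaling. The 110 probes that were 0 everywhere were dropped, the rest quantile-normalized together, and a pseudocount of 0.267 (the 10th percentile of positive values) added before log2, so that fold changes of dim probes are understated. Samples 1 and 2, 3 and 4, and 5 and 6 were averaged as doublets, a pairing set before the tests. Their deviations from the genotype mean correlated across probes at 0.59 to 0.89, without a comparison with other pairs of samples of the genotype. Genotypes were compared with limma 3.58.1 in R 4.3.3 (lmFit, eBayes, two-sided, Benjamini-Hochberg over 3329 probes, threshold 0.05), 3 against 3 doublets without a block. The fit was run on simulated doublets with independent normal values and known shifts, to check that the median shift was recovered. Dependence between samples and normalization were not simulated, so the error rate in these data was not tested. Percentile ranks were compared by exact permutation of doublets (2 tests). Same-numbered samples of the genotypes correlated in their deviations at 0.11 to 0.30, and same-numbered doublets at 0.068, 0.14 and 0.24, from the data and not the labels, so a replicate block was also fitted.

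Genes were named from the platform annotation, which can be old, through gene IDs in the TAIR10.1 table (690 of 692 single-gene probes matched). It assigns 870 probes to several genes and does not list 1877. No coordinates or sequences are printed. The members, gene lists and tests were chosen with earlier results of these data known. The genes most alike were the 5 with the highest Pearson r, and every list gene with its own probe is given.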

Additional observations from a re-analysis of the deposited data

Results flagged for a closer look

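SBPASE in mutant replicate 4 lay apart from the other mutant samples on 2 measures, by Dixon's criterion for 6 samples. Its normalized log2 level was 1.87 and its multiple of the sample median 3.08, while the other 5 mutant samples had log2 levels of 0.22 to 0.83. These 2 are among 18 groups of 6 samples examined, and they describe the same sample. Chance flags about 1 in 20 groups of independent samples, a rate that need not hold for 6 samples made up of doublets of repeats. In wild type, replicate 4 also had the highest SBPASE value, at 1.68, without standing apart by this criterion. PRK had no such sample in either genotype.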

How the results depend on the processing

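The PRK difference was positive in all 35 alternatives run, from 1.22 to 2.36. It passed the test only in 2 settings that count the repeats of a doublet as independent, with a difference of 1.46 each time. These were all 12 samples as if independent (limma adjusted p = 0.0022) and the replicate block by sample number (limma adjusted p = 0.0027). With the doublet as a random block, which enters samples separately but allows for the correlation of repeats, PRK did not pass (limma adjusted p = 0.113). With the replicate block by doublet number the limma adjusted p was 0.798 for PRK and 0.819 for SBPASE, and the block changed no other call of these genes. The adjusted p of PRK in limma ranged up to 0.990. The SBPASE difference was negative in 34 of 35 alternatives and 0.39 without normalization, a setting in which the median probe was at 0.66 and PRK at 2.36. It never passed. Without replicates 1 and 2 of both genotypes it was -0.19. With single samples or doublets left out, the rest normalized again, PRK lay between 1.22 and 1.75 and SBPASE between -0.68 and -0.13. The number of probes passing was 0 in 26 of 35 alternatives. Under 3 settings it was 1, namely doublets as a random block, the lower pseudocount, and eBayes with a trend and a robust prior. It was 99 with 12 samples as if independent, 55 with the replicate block by sample number, 0 to 2 with samples or doublets left out, and 1 without replicate 3 of both genotypes. The log2 ratio of PRK to SBPASE on deposited intensities differed by 1.72 to 2.70 with samples or doublets left out. In 5 other settings the ratio was taken from log2 levels with a pseudocount, and differed by 1.60 to 2.11. The PRK rank differed by 33.3 to 46.7 percentage points. The SBPASE rank differed by -21.5 to -4.80. The causes were not tested. Other probes of a gene could not be tried, since each member has 1. Leaving out 1 replicate of both genotypes was chosen after the data were seen. Half-widths of the 95% intervals had a median of 0.67, which limits what 3 doublets can show.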

Other observations

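The probes whose replicate 4 exceeded replicate 3 in both genotypes by at least as much as SBPASE were singled out after their values were seen. Beside SBPASE (probe 1517) they were probes 1513, 1975, 3092, 3503 and 4542.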
